A study of Mus musculus with 4 samples.

Results

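The genes described here are 10 genes of de novo fatty acid synthesis, out of 21878 rows in each deposited count table, chosen by name: Srebf1, Acly, Acaca, Acacb, Fasn, Scd1, Scd2, Elovl5, Elovl6 and Me1. All 10 were found and all 10 passed the filter on low counts. RNA came from CD24+ liver cells of C57BL/6 mice, collected on magnetic columns (MACS) and labelled as hepatocytes, with 2 HACY and 2 CCL4 libraries. HACY mice were injected 3 times a week for 6 weeks with a cocktail of 3 small molecules: Y-27632, a kinase inhibitor, A-83-01, which blocks the kinase of TGF-beta type I receptors, and CHIR99021, which blocks GSK3. CCL4 mice were injected with carbon tetrachloride, a liver toxin, given 2 times a week over 6 weeks in olive oil (2 ml/kg). Mice of both groups were 8 weeks old at injection in the protocol and 6 to 8 weeks old in the sample labels. The labels do not make clear whether the HACY mice also received carbon tetrachloride, and there was no untreated group, so every difference is HACY relative to CCL4. Replicates are not said to come from separate mice, and p-values then measure only the spread between these libraries, which may be technical.

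Liver cells make new fatty acids from citrate that leaves the mitochondria. ATP citrate lyase splits it into acetyl-CoA, acetyl-CoA carboxylase turns that into malonyl-CoA, and fatty acid synthase builds palmitate with reducing power partly supplied by malic enzyme. Elongases and desaturases then lengthen and unsaturate the product, and the transcription factor encoded by Srebf1 drives most of these genes in the liver in response to insulin and to the oxysterol receptors LXR.

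Of the 10 genes, a desaturase was called higher and a carboxylase lower. Scd1, the main stearoyl-CoA desaturase of liver, rose 2.29-fold in HACY. Acacb, the carboxylase of the mitochondrial surface, was 2.11-fold lower in HACY, near the limit of the test. The other 8 genes, Srebf1, Acly, Acaca, Fasn, Scd2, Elovl5, Elovl6 and Me1, did not pass the threshold, an edgeR quasi-likelihood p adjusted over all genes of 0.05. Thus 1 of 10 genes was called higher, against 8.19% of the 13428 genes tested, and 1 of 10 lower, against 3.54%. In either direction it was 2 of 10, against 11.7% of all tested genes. In 5 of the 10 the libraries of the groups did not overlap (Acly and Scd1 higher in HACY, Acacb, Elovl6 and Me1 lower), against 60.8% of all tested genes. The median log2 fold change was 0.010 over the 10 genes and -0.0093 over all tested genes.

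The following 3 promoter windows are shown because they belong to the regulator of the pathway, to its central enzyme and to the gene called lower. Each holds 250 bases before and 50 bases after a transcription start, from RefSeq on GRCm38.p6, the same assembly as the build mm10 named by the submitters. The table had windows for 8 of the 10 genes (11 windows, with 3 for Srebf1 and 2 for Me1). Scd1 and Scd2 had no entry. Capitals mark matches on either strand to CCAAT (the NF-Y box), GGGCGG (the Sp1 GC box), CACGTG (an E-box), TCACNCCAC (a sterol response element), to the LXR element DR4 (AGGTCA repeated after a gap of 4 bases), or to a form of that element (TGACC and GTAACC with the same gap). The letters of that form were written after these windows were seen. The windows are chr11:60210422-60210721, minus strand, for the start of Srebf1 nearest to its 3′ end, chr11:120824498-120824797, minus strand, for Fasn, and chr5:114165268-114165567, plus strand, for Acacb, whose window lies inside the gene's annotated span.
Srebf1: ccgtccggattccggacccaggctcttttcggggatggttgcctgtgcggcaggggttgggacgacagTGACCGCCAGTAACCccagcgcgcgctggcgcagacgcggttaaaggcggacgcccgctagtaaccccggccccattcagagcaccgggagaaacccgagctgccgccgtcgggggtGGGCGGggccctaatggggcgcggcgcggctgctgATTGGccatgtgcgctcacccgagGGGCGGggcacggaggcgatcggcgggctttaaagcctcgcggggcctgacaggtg
Fasn: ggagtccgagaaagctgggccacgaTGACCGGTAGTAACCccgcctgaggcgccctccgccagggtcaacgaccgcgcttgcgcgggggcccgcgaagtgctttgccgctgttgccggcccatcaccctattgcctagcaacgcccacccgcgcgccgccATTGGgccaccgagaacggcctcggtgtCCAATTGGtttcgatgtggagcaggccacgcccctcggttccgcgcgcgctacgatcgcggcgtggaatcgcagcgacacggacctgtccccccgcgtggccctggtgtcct
Acacb: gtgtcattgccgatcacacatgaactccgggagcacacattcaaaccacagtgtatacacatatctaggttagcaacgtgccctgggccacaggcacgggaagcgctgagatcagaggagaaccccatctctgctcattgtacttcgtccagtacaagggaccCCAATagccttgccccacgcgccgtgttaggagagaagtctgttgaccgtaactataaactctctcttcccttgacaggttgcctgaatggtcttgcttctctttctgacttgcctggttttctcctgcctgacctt

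The form of DR4 with TGACC and GTAACC stood at base -182 of the Srebf1 window and at base -225 of the Fasn window, counted to its first base from the start site. It was in 2 of the 11 windows, and of the 3 Srebf1 windows only the one shown held it. Since its letters were chosen on these windows, its share of all 32851 windows (0.0365%) is no measure of enrichment. CCAAT was found in 7 of the 11 windows (6 genes), including 3 matches for Fasn of which 2 overlap, and in 37.4% of all windows. GGGCGG was found in 4 of the 11 (Srebf1, Acly and Me1) and in 35.7% of all windows. CACGTG was found in 1 of the 11 (Elovl5) and in 7.15% of all windows. TCACNCCAC (1.24% of all windows) and the DR4 consensus (0.0152%) were in none of the windows of the 8 genes, which says only that these letters are not within these stretches. The single match in the Acacb window is a CCAAT box at base -87.

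Srebf1 (chromosome 11, 60199089 to 60222581, minus strand, GRCm38) had 1131 and 1299 reads in the HACY libraries and 1148 and 1505 in the CCL4 libraries. Scaled to the library's total with TMM factors (CPM), this was 61.7 and 73.7 CPM in HACY and 58.0 and 74.1 CPM in CCL4. The groups overlapped, and replicates of 1 group differed by more than the group means did. The log2 fold change was 0.035 (95% interval -0.36 to 0.43, edgeR adjusted p = 0.917). This interval bounds a change of Srebf1 RNA in either direction but says nothing of the cleaved, active protein. The gene has several starts whose proteins differ at the amino end, and the count of the gene adds them up. Its exons share 109 bases with Rai1 on the opposite strand, and the strand setting of the counting is not given in the sources used here.

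**Figure D1:**
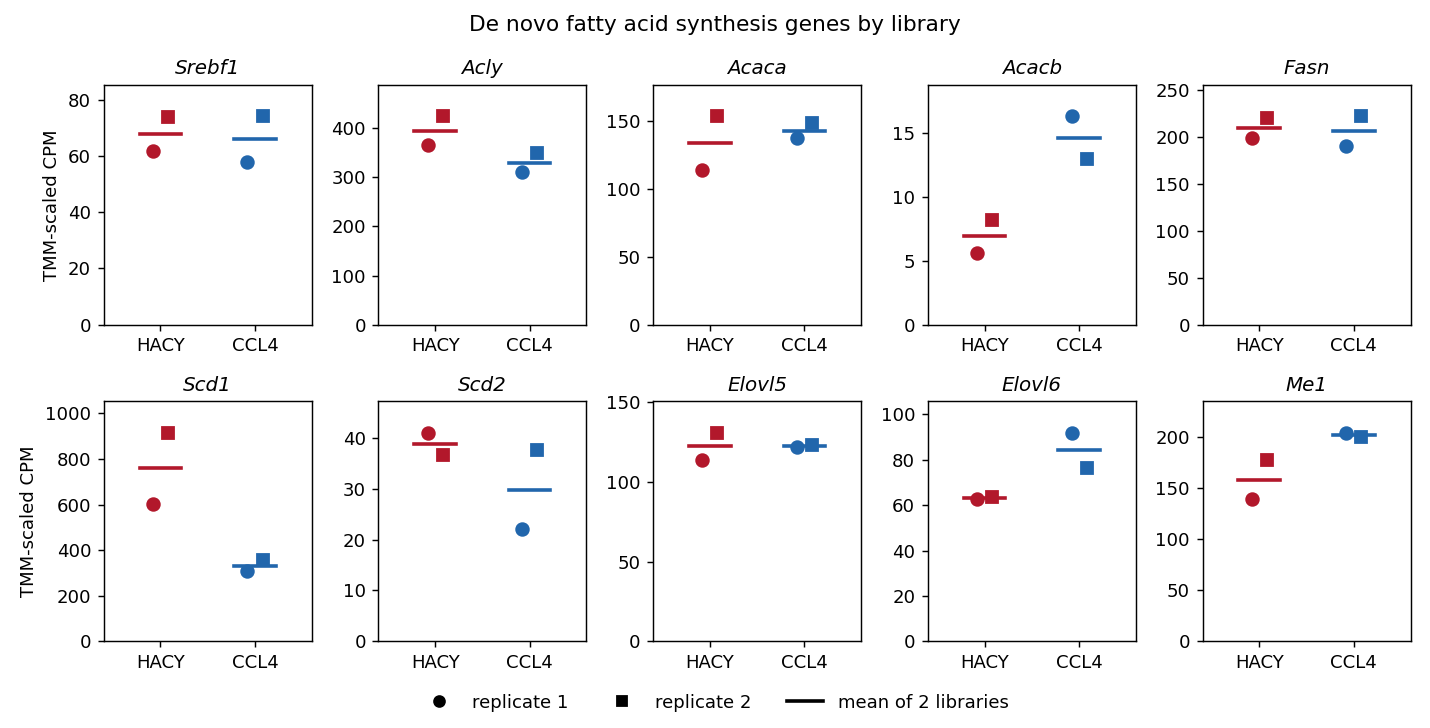
Level of each of the 10 genes in each library, in TMM-scaled CPM on axes that start at 0, with HACY left of CCL4. Circles are replicate 1, squares replicate 2 and lines the mean of 2 libraries; the Scd1 libraries of HACY stand at 603 and 915 CPM, above those of CCL4, and the Acacb libraries of HACY at 5.62 and 8.23 CPM, below those of CCL4.

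Acly (chromosome 11, 100476353 to 100528000), which makes cytosolic acetyl-CoA from citrate, had 366 and 424 CPM in HACY and 310.0 and 350 CPM in CCL4. Both HACY libraries lay above both CCL4 libraries, but the difference did not pass the test (log2 0.26, SE 0.13, edgeR adjusted p = 0.234). Acaca (chromosome 11, 84129672 to 84401651) encodes the cytosolic carboxylase whose malonyl-CoA feeds synthesis. It had 114 and 154 CPM in HACY and 137 and 149 CPM in CCL4, so the HACY libraries lay on both sides of the CCL4 pair (log2 -0.096, 95% interval -0.48 to 0.29, edgeR adjusted p = 0.740). Without HACY replicate 1 the sign turned, at 0.098.

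Acacb (chromosome 5, 114146535 to 114250761) encodes the carboxylase bound to the outer mitochondrial membrane, whose malonyl-CoA holds back the import of fatty acids for oxidation. It had 103 and 145 reads in HACY and 323 and 263 reads in CCL4, or 5.62 and 8.23 CPM in HACY and 16.3 and 13.0 CPM in CCL4. Each HACY library was below each CCL4 library, as for 30.1% of all tested genes. The mean was 6.92 ± 1.84 CPM in HACY and 14.6 ± 2.38 CPM in CCL4 (SD, n = 2 each), a log2 fold change of -1.08 (SE 0.28, edgeR adjusted p = 0.0478). Leaving out HACY replicate 1 (-0.84, adjusted p = 0.287), HACY replicate 2 (-1.38, 0.0620) or CCL4 replicate 1 (-0.90, 0.106) ended the call, as did a stricter filter (adjusted p = 0.0504) or the use of FPKM.

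The balance between both carboxylases was therefore read within each library. The ratio of Acaca to Acacb on the deposited FPKM scale, which corrects for transcript length, was 21.4 and 20.1 in HACY and 8.35 and 12.5 in CCL4. Acaca was the more abundant form in every library, and the ratio was higher in both HACY libraries than in both CCL4 libraries. The ratios are a description and were not tested. They use the same Acacb values again, so they are not independent of the Acacb difference. The transcripts of the 2 genes share no word of 50 bases (longest common run 29 bases).

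Fasn (chromosome 11, 120805846 to 120824547), fatty acid synthase, is the enzyme that carries out every step from malonyl-CoA to palmitate. It had 199 and 220.2 CPM in HACY and 190.3 and 222 CPM in CCL4. The HACY values lay between the CCL4 values, and the log2 fold change was 0.023 (95% interval -0.29 to 0.33, edgeR adjusted p = 0.929). This interval gives the uncertainty of the estimate, not the smallest change that the test could call with 2 libraries a group.

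Me1 (chromosome 9, 86581371 to 86695953), the cytosolic malic enzyme that yields NADPH, had 139 and 177 CPM in HACY and 204 and 200.1 CPM in CCL4. Both HACY libraries lay below the CCL4 pair, which differed little from each other. This was -0.35 on the log2 scale (SE 0.15, unadjusted p = 0.0436, edgeR adjusted p = 0.153), so Me1 did not pass the test over all genes. It passed by library size alone (-0.53, adjusted p = 0.0433) and after offsets for GC content and length (-0.48, adjusted p = 0.0496).

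**Figure D2:**
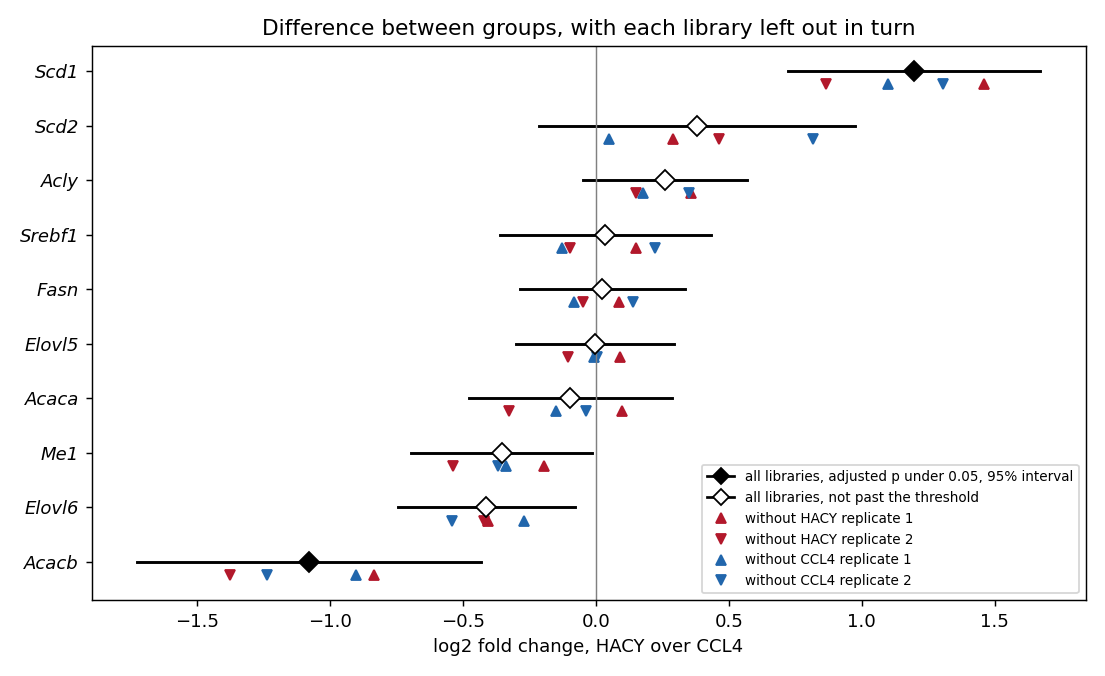
Log2 fold change of HACY over CCL4 for the 10 genes on the x axis, with edgeR's 95% interval (diamonds and lines) and the value with each library left out (triangles). Only Scd1 at 1.20 and Acacb at -1.08 carry a filled diamond, an adjusted p under 0.05, and Acacb spans -1.38 to -0.84 over the 4 fits that leave out a library.

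The elongases extend palmitate and the longer fatty acids. Elovl6 (chromosome 3, 129532355 to 129638495), which lengthens palmitate to stearate, had 62.8 and 63.6 CPM in HACY and 91.9 and 76.3 CPM in CCL4. Both HACY libraries were lower and nearly equal, whereas the CCL4 libraries differed by 0.27 on the log2 scale. This gave a log2 fold change of -0.41 (SE 0.14, unadjusted p = 0.0218, edgeR adjusted p = 0.104). It passed the threshold without CCL4 replicate 2 (-0.54, adjusted p = 0.0232), by library size alone (-0.58, 0.0382) and after the offsets for GC content and length (-0.51, 0.0333).

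Elovl5 (chromosome 9, 77917364 to 77984519), which acts mainly on polyunsaturated fatty acids, had 114 and 131 CPM in HACY and 122 and 123 CPM in CCL4. The CCL4 values fell between those of HACY (log2 -0.0025, 95% interval -0.30 to 0.29, edgeR adjusted p = 0.992). The FPKM ratio of Elovl6 to Elovl5 was 0.220 and 0.201 in HACY and 0.302 and 0.262 in CCL4, lower in both HACY libraries. Elovl5 was the more abundant of the pair per transcript length in all 4 libraries. The pair shares no word of 50 bases.

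Scd1 (chromosome 19, 44394455 to 44407879) encodes the desaturase that makes oleate from stearate and palmitoleate from palmitate. It had 11053 and 16131 reads in HACY and 6077 and 7205 reads in CCL4, or 603 and 915 CPM in HACY and 307 and 355 CPM in CCL4. Every HACY library exceeded every CCL4 library, as for 30.7% of all tested genes. The mean was 759 ± 220.4 CPM in HACY and 331 ± 33.8 CPM in CCL4 (SD, n = 2 each), a log2 fold change of 1.20 (SE 0.20, edgeR adjusted p = 0.0130), at the 94.5th percentile of all tested genes. The HACY libraries differed from each other by 0.60 on the log2 scale, so the size of the rise was less certain than its direction. Leaving out a HACY library gave 1.46 (replicate 1 out) or 0.87 (replicate 2 out). Leaving out a CCL4 library gave 1.31 (replicate 2 out) or 1.10 (replicate 1 out, where the call was lost at adjusted p = 0.0502).

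Scd2 (chromosome 19, 44293674 to 44306864), a related desaturase best known from brain and from fetal and neonatal tissue, had 41.0 and 36.6 CPM in HACY and 22.04 and 37.5 CPM in CCL4. CCL4 replicate 2 lay between the HACY libraries and CCL4 replicate 1 stood apart, 0.77 lower on the log2 scale. The difference, 0.38 on the log2 scale (SE 0.25, edgeR adjusted p = 0.357), did not pass; it was 0.82 without CCL4 replicate 2 (adjusted p = 0.0203) and 0.049 without CCL4 replicate 1. The FPKM ratio of Scd1 to Scd2 was 12.6 and 21.5 in HACY and 11.9 and 8.23 in CCL4. Scd1 predominated in each library, and HACY replicate 1 exceeded CCL4 replicate 1 only slightly.

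The Scd genes are neighbours on chromosome 19 and have stretches in common. Of the words of 50 bases in Scd1 transcripts, 2.97% also occur in Scd2 and 3.42% in Scd3, with a longest common run of 147 bases with Scd2 and 185 with Scd3. Most of the Scd1 sequence is thus its own at that length, while reads within the common stretches are uncertain. Scd3 and Scd4 were too low to be tested.

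On the per-length scale the 10 genes spread over a wide range. Scd1 was the highest gene at 98.8 and 144 FPKM in HACY and was level with Me1 in CCL4, where Scd1 had 53.2 and 64.5 FPKM and Me1 55.4 and 55.6. Acly had 50.3 and 57.3 FPKM in HACY and 45.6 and 51.0 in CCL4, above Me1 in HACY and below it in CCL4. Elovl5 (35.9 and 38.9 FPKM in HACY, 39.9 and 41.6 in CCL4) could not be separated from Me1 in HACY (35.6 and 42.8 FPKM). Fasn came next at 14.3 and 15.6 FPKM in HACY and 14.3 and 16.6 in CCL4. Srebf1, Acaca, Elovl6 and Scd2 lay between 4.48 and 12.1 FPKM in all libraries, where several of their ranges overlapped, and Acacb was the lowest in each library, at 0.373 and 0.517 FPKM in HACY and 1.20 and 0.920 in CCL4.

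**Figure D3:**
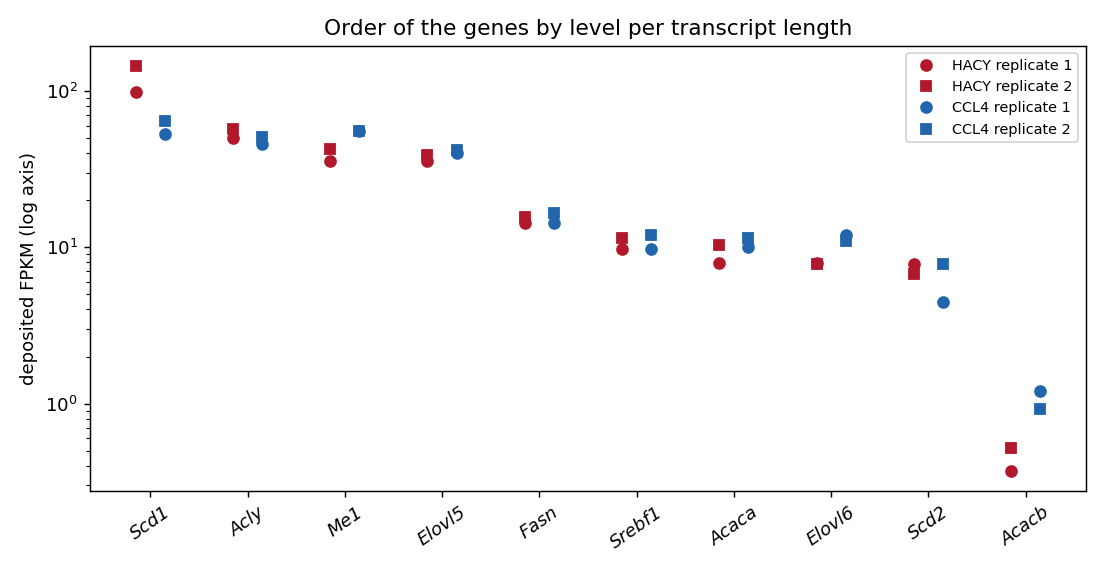
Deposited FPKM (log axis) of the 10 genes in the 4 libraries, ordered by the mean over libraries, with HACY left of CCL4 for each gene. Scd1, Acly, Me1 and Elovl5 form the upper tier, between 35.6 and 144 FPKM, and Acacb is the lowest gene in all 4 libraries.

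Summed over the 10 genes, the level was 1707 and 2204 TMM-scaled CPM in HACY and 1460 and 1601 in CCL4, where the groups did not overlap. On the FPKM scale it was 269 and 336 in HACY and 246 and 273 in CCL4, where they overlapped. Scd1 made up 36.8% and 42.9% of the FPKM sum in HACY and 21.6% and 23.7% in CCL4. The other 9 genes together had 1104 and 1289 CPM in HACY and 1153 and 1246 in CCL4, so the groups overlapped without Scd1. In FPKM these 9 had 169.9 and 192 in HACY and 193 and 208 in CCL4, lower in HACY, on a scale where the median difference of all genes was -0.099 (log2(FPKM + 1), filtered). These sums describe the 4 libraries and were not tested.

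Markers of several cell types differed between the groups beside these genes. Of 12 hepatocyte markers 9 were called higher and none lower (75% called, against 11.7% of all tested genes). Their summed level was 31940 and 40510 CPM in HACY and 10840 and 9496 CPM in CCL4. Most of each sum was Alb, with 24000 and 30350 CPM in HACY and 6968 and 5494 CPM in CCL4. Each of the 12 was higher in both HACY libraries than in both CCL4 libraries, as were 30.7% of all tested genes. Of 8 macrophage markers 7 were called higher (87.5%), with sums of 3113 and 2198 CPM in HACY and 907 and 1219 CPM in CCL4. Of 7 endothelial markers 2 were called higher and 1 lower (42.9% called). The endothelial sums were 1178 and 898 CPM in HACY and 385 and 655 CPM in CCL4. The 7 adipocyte markers summed to 12.7 and 12.3 CPM in HACY and 16.4 and 16.55 CPM in CCL4, nearly all of it Lipe, hormone-sensitive lipase (12.0 and 10.5 CPM in HACY, 15.3 and 15.2 CPM in CCL4). Pck1 had 13 to 32 reads a library, but it is also a gluconeogenesis gene of hepatocytes and does not mark adipocytes alone. Adipoq, Plin1 and Retn had at most 2 reads, and Lep and Cfd none. Neutrophil markers summed to 18.3 and 22.9 CPM in HACY and to 20.4 and 197 CPM in CCL4. In that sum CCL4 replicate 2 stood apart. Of 6 tested, 1 was called lower and none higher (16.7% called, against 11.7% of all tested genes). It was Cxcr2, with 0.819 and 0.738 CPM in HACY and 2.78 and 13.05 CPM in CCL4 (log2 -3.34, edgeR adjusted p = 0.0349). S100a8, S100a9 and Cxcr2 were lower in both HACY libraries than in both CCL4 libraries, as were 30.1% of all tested genes, and the other 3 overlapped. Cholangiocyte markers summed to 2947 and 4240 CPM in HACY and 1180 and 2243 CPM in CCL4 (1 of 7 tested lower, none higher, 14.3% called). Without Spp1, which made up most of that sum, the others had 111 and 121 CPM in HACY and 97.1 and 135 CPM in CCL4 and overlapped. Stellate markers summed to 666 and 536 CPM in HACY and 312 and 766 CPM in CCL4 (none called). The B cell (23.8 to 30.4 CPM), erythroid (2.43 to 9.98) and T and NK cell (0.505 to 2.29) sums were low in all libraries, with no call. In bulk RNA fewer cells of a type and less RNA per cell cannot be told apart, and the part of these markers in the Scd1 and Acacb differences was not tested.

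**Figure D4:**
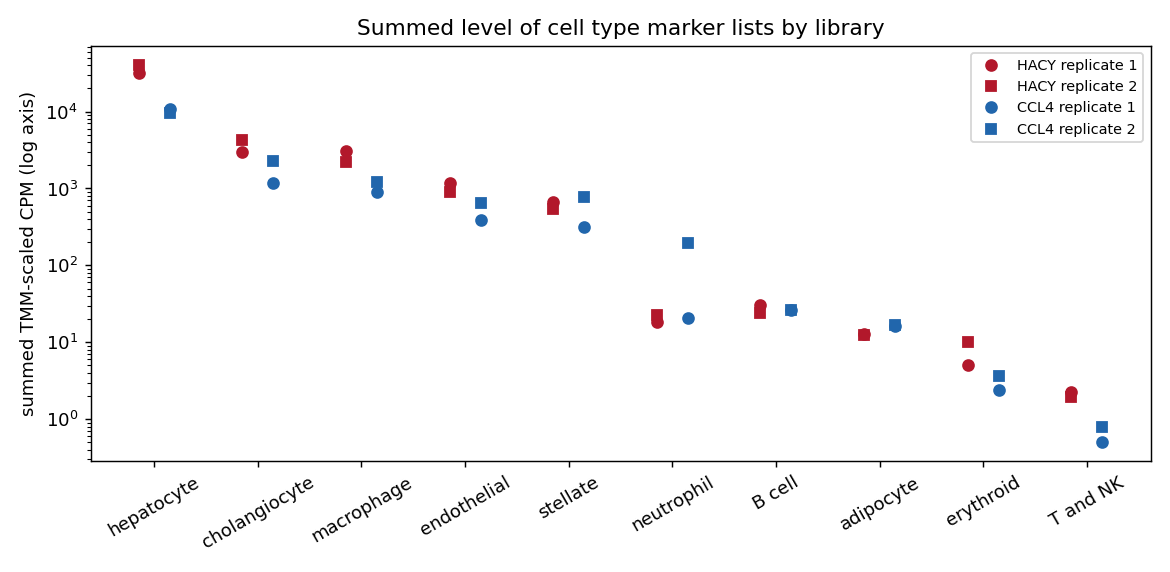
Summed TMM-scaled CPM (log axis) of each cell type marker list in the 4 libraries, with HACY left of CCL4. The hepatocyte sum, most of it Alb, stands at 31940 and 40510 CPM in HACY and at 10840 and 9496 CPM in CCL4. The adipocyte sum does not exceed 16.55 CPM.

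Depth was similar across the 4 libraries, with 18467299 to 19314219 reads assigned to genes. A count of 0 allows up to 3 reads, which is 0.155 to 0.162 CPM and covers counting error only. Cd24a, the gene of the protein used for sorting, had 21.9 and 19.3 CPM in HACY and 20.7 and 38.0 CPM in CCL4. The label of hepatocytes was compared with the 12 hepatocyte markers. Alb, the albumin gene, was the highest, with 24000 and 30350 CPM in HACY and 6968 and 5494 CPM in CCL4. Cyp2e1 (53.12 and 68.87 CPM in HACY, 32.8 and 25.91 in CCL4) and Cps1 (31.39 and 35.12, 7.025 and 10.99) were the lowest. The other markers lay between Alb and these genes in each library. The macrophage gene Cd5l had 937 and 638 CPM in HACY and 244 and 268 CPM in CCL4, above Cyp2e1 and Cps1 in each library. No reference sample of hepatocytes was among the libraries, so the label was not tested. The libraries of both groups thus also held RNA of genes outside the hepatocyte label.

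Genes around the pathway were read from 9 further lists, 121 genes in all, of which 113 were tested. There 15 were called higher and 8 lower, 20.4% of those tested against 11.7% of all genes, with a median log2 fold change of 0.041. The 15 rises included 7 of LXR targets. Leaving out a library moved these counts to between 9 (either HACY replicate out) and 21 (CCL4 replicate 2 out) rises and between 2 (HACY replicate 1 out) and 12 (CCL4 replicate 2 out) falls.

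Of 8 genes for the escort, retention and cleavage of SREBP proteins, 1 was lower and none higher (12.5% called, against 11.7% of all tested genes). The lower gene was 2410131K14Rik, listed by RefSeq as a synonym of Spring1, a Golgi factor needed for SREBP activation, with 17.2 and 16.1 CPM in HACY and 25.6 and 32.2 CPM in CCL4 (log2 -0.79, edgeR adjusted p = 0.0402). With HACY replicate 1, HACY replicate 2 or CCL4 replicate 2 left out its adjusted p was 0.172, 0.224 and 0.0504. Mbtps1, the protease of the initial cut, had a log2 fold change of 0.45 (adjusted p = 0.0829, and 0.0209 without CCL4 replicate 2), Scap, the escort, 0.16 (0.481), and Insig2, which retains the complex, -0.27 (0.410).

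Among 17 regulators of lipogenic transcription and of acetyl-CoA carboxylase, 1 rose and 3 fell (23.5% called, against 11.7% of all tested genes). Nr1h3, the oxysterol receptor LXR alpha, had 70.4 and 61.0 CPM in HACY and 33.1 and 32.2 CPM in CCL4 (log2 1.01, SE 0.15, edgeR adjusted p = 0.00782), a call lost without HACY replicate 1 (0.90, 0.0555). The 3 falls were Mid1ip1, which promotes the assembly of acetyl-CoA carboxylase into active polymers (-0.57, adjusted p = 0.0365), Prkaa2, a catalytic subunit of the kinase AMPK that inhibits it (-0.68, 0.0420), and Mlycd, which breaks down malonyl-CoA (-0.82, 0.0467). None of these 3 falls stayed past the threshold when HACY replicate 1 (adjusted p = 0.312, 0.241 and 0.106), HACY replicate 2 (0.0905, 0.0865 and 0.323) or CCL4 replicate 1 (0.0635, 0.0823 and 0.0793) was left out. Chosen after their values were seen, Mlxipl, the carbohydrate-sensing factor ChREBP, had 96.3 and 173 CPM in HACY and 252 and 190.4 CPM in CCL4 (-0.71, adjusted p = 0.134). It had -1.20 without HACY replicate 2 (adjusted p = 0.00903), -0.36 without HACY replicate 1 (0.492), and was called by DESeq2 (adjusted p = 0.0282). Thrsp, a lipogenic partner of Mid1ip1 chosen in the same way, had -0.77 (0.102), and -0.99 without CCL4 replicate 2 (0.0324).

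Most LXR targets outside the 10 genes were higher. Of 9 tested, 7 rose and none fell (77.8% called, against 11.7% of all tested genes, median log2 fold change 0.78). Of the 10 genes, Scd1, Srebf1 and Fasn are known LXR targets as well and had 1.20, 0.035 and 0.023. Pltp, a phospholipid transfer protein, had 39.6 and 32.4 CPM in HACY and 9.05 and 9.41 CPM in CCL4 (log2 1.96, edgeR adjusted p = 0.00219). Lpl, lipoprotein lipase (2.05), Abcg1, a cholesterol exporter (1.53), Apoe, apolipoprotein E (1.06), Mylip, which degrades the LDL receptor (0.78), Lpcat3, which puts polyunsaturated chains into phospholipids (0.59), and Abca1, another exporter (0.57), rose too. Abcg5 and Abcg8, sterol exporters of the canalicular membrane, had -0.32 and -0.63 and did not pass. On unfiltered FPKM the calls of Lpl, Abcg1, Mylip, Lpcat3 and Abca1 were lost. Macrophages also express Pltp, Lpl, Abcg1, Apoe and Abca1, and the macrophage markers above moved the same way, a part that was not tested. With HACY replicate 1, HACY replicate 2 or CCL4 replicate 1 left out 4 of the 9 were called, and also by library size alone, by upper quartile scaling and by filtered FPKM.

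**Figure D5:**
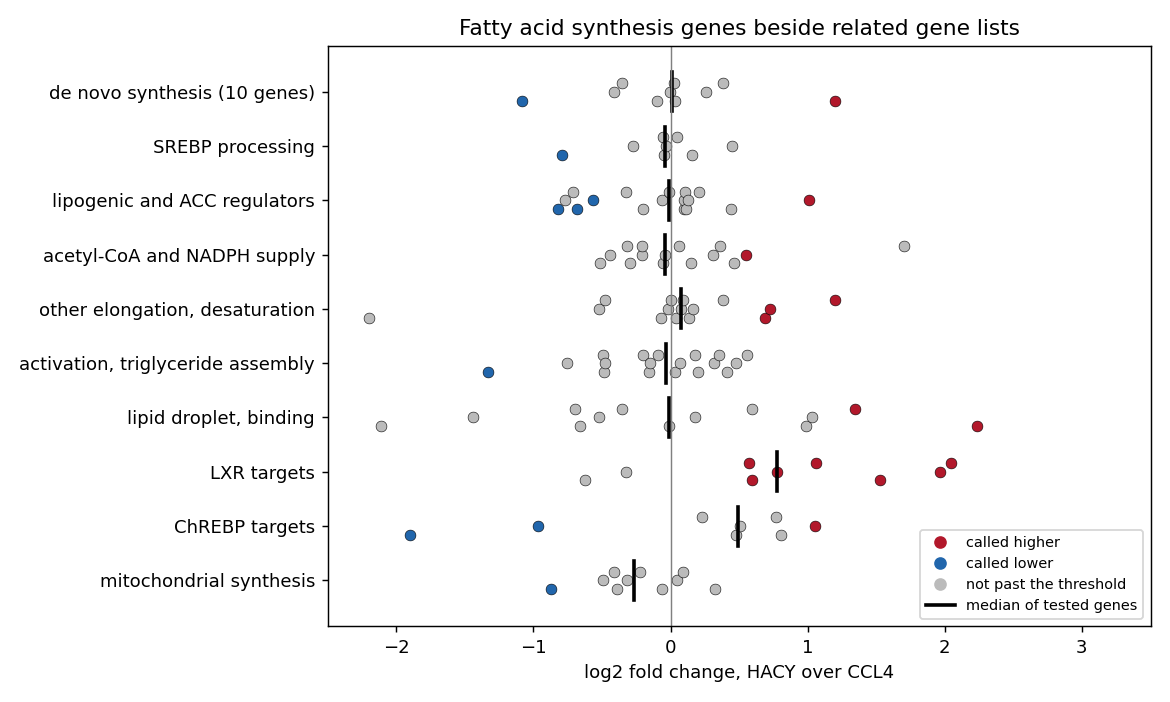
Log2 fold change of HACY over CCL4 for each tested gene of the 10 and of 9 related lists. Red points were called higher, blue points lower, grey points did not pass the threshold, and the vertical bars are medians; the bar of LXR targets stands at 0.78 and that of the 10 genes at 0.010.

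ChREBP targets split. Txnip, a glucose-responsive regulator of redox and glucose uptake, had 379 and 354 CPM in HACY and 1536 and 1196 CPM in CCL4 (log2 -1.90, SE 0.15, edgeR adjusted p = 0.00148). Gpd1, which makes glycerol phosphate for triglycerides, had -0.97 (adjusted p = 0.00776), and Tkfc, a kinase of fructose metabolism, rose by 1.05 (0.0202). Of 8 tested, 1 rose and 2 fell (37.5% called, against 11.7% of all tested genes), and the median was 0.49. The falls of Txnip and Gpd1 stayed past the threshold with each library left out, and the rise of Tkfc was lost without HACY replicate 2 (adjusted p = 0.0651).

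Supply of acetyl-CoA and NADPH showed 1 call among 15 tested genes (6.67%, against 11.7% of all tested genes). It was Idh1, the cytosolic isocitrate dehydrogenase that yields NADPH. Idh1 had 69.4 and 71.1 CPM in HACY and 45.7 and 50.1 CPM in CCL4 (log2 0.55, edgeR adjusted p = 0.0403). That call was lost in 11 of 17 other settings, among them each fit without a HACY library. Aacs, which activates acetoacetate, had -0.51 (adjusted p = 0.0717), Pdhb, a subunit of pyruvate dehydrogenase, -0.44 (0.0873), and Acss1, a mitochondrial acetyl-CoA synthetase, 1.70 (0.0858) at 1.97 CPM or less in any library.

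Other elongation and desaturation genes had 3 rises and no fall among 15 tested (20% called, against 11.7% of all tested genes, median log2 fold change 0.074). Hsd17b12, the ketoacyl reductase of the elongation cycle that works with every elongase, had 323 and 400 CPM in HACY and 221 and 229 CPM in CCL4 (log2 0.69, edgeR adjusted p = 0.0234). Hacd4, a dehydratase of the same cycle, rose by 1.20 (adjusted p = 0.0159), and Degs1, a desaturase of ceramide synthesis, by 0.73 (0.0117). Fads6, a desaturase-like gene, had -0.48 (0.0708). The calls of Hacd4 and Degs1 were lost without HACY replicate 1 (0.0949 and 0.0850), and that of Hsd17b12 without HACY replicate 2 (0.176) or CCL4 replicate 1 (0.0570). After the offsets for GC content and length 3 genes of this list fell.

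Downstream, fatty acid activation and triglyceride assembly had 1 fall and no rise among 18 tested genes (5.56% called, against 11.7% of all tested genes, median -0.030). Lpin1, the phosphatidate phosphatase that yields diacylglycerol and is also a nuclear coactivator, had 12.7 and 14.5 CPM in HACY and 42.7 and 25.8 CPM in CCL4 (log2 -1.33, SE 0.26, edgeR adjusted p = 0.0225), a call lost without HACY replicate 1 (0.0720). Acsl5, an acyl-CoA synthetase, had 0.56 (0.0586), Lpin2, a related phosphatase, -0.49 (0.0678) and Dgat2, which makes triglyceride, -0.49 (0.101).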

How the data were processed

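Polyadenylated RNA of CD24+ liver cells was sequenced from stranded paired-end libraries, per the labels' protocols. Each deposited table gives, per the file headers, a raw read count and an FPKM (made by the authors, scaled to transcript length and depth) per gene symbol. Trimmomatic, HISAT2, Cufflinks, HTSeq and DESeq and the build mm10 are named per the submitters' processing notes, without versions. For the annotation and the strand setting, the sources used here name nothing. Locations come from GENCODE M21 (GRCm38).

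The test on counts was edgeR 4.0.16 (R 4.3.3): filterByExpr (minimum count 10, minimum total 15), TMM scaling, robust quasi-likelihood fit with treatment as the only term, two-sided, Benjamini-Hochberg adjustment over 13428 genes. SE is the log2 fold change over the square root of F, and 95% intervals use it. The fit was tested on simulated data. Replicates were no copies of each other (chi-square per degree of freedom 16.7 in HACY and 30.0 in CCL4). Alternatives were other scalings, DESeq2 1.42.0, limma 3.58.1 (voom, and log2(FPKM + pseudocount)), filters, a replicate block, offsets for GC content and length (97.0% of tested genes) and each library left out. The 10 genes and all lists were chosen with earlier results of these data known. From each related list, called genes and up to 4 with the smallest p are named. Symbols absent from the tables were matched through RefSeq synonyms (5 genes).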

Additional observations from a re-analysis of the deposited data

How the results depend on the processing

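The Scd1 rise kept its direction in all 17 other settings (0.87 to 1.46) and its call in 15, and Acacb kept its direction in 17 (-1.38 to -0.51) and its call in 9. The count of genes called higher among the 10 was 1, and 0 by FPKM without a filter (where Scd1 had adjusted p = 0.0907); it was 0 to 2 with a library left out. The count called lower was 1. It was 3 by library size alone, 3 with GC content and length offsets and 3 with those offsets and a replicate block (Acacb, Elovl6 and Me1 each time), and 0 with a replicate block, with the stricter filter and in all 3 FPKM settings; it was 0 to 2 with a library left out. Library size alone moved the median of all genes to -0.18 and that of the 10 genes to -0.16.

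Of all genes tested, 1100 were higher and 476 lower. Higher calls numbered 662, 652 and 180 on log2(FPKM + 1), log2(FPKM + 0.1) and unfiltered log2(FPKM + 1), and 530 to 1840 with a library left out. Lower calls numbered 1355 by library size alone, 738 by DESeq2, 62 on unfiltered FPKM, 1028 with GC content and length offsets, 1155 with those offsets and a replicate block, and 99 to 1207 with a library left out. Of the other pathway genes 15 were higher, 2 on unfiltered FPKM, and 9 to 21 with a library left out; 8 were lower, 18 by library size alone, 2 on unfiltered FPKM, 5 with a replicate block, 16 with GC content and length offsets with or without the block, and 2 to 12 with a library left out.

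Signs turned in genes with values near 0. Srebf1 had -0.027 with upper quartile scaling, -0.14 by library size alone, -0.030, -0.032 and -0.030 on log2(FPKM + 1), log2(FPKM + 0.1) and unfiltered FPKM, -0.097 without HACY replicate 2 and -0.13 without CCL4 replicate 1 (range with a library left out, -0.13 to 0.22). Fasn had -0.039, -0.15, -0.044, -0.047, -0.044, -0.049 and -0.084 in the same settings (range -0.084 to 0.14). Acaca had 0.098 (range -0.33 to 0.098) and Elovl5 0.088 (range -0.11 to 0.088) without HACY replicate 1, Elovl5 0.0031 without CCL4 replicate 2, and Scap -0.013 by library size alone. The cause of these changes was not tested. Same-numbered libraries did not deviate together over all genes (correlation -0.099). This value cannot show whether the libraries were paired, since features of 1 library can mask a shared deviation. The replicate block called 1224 genes against 1576. It called Scd1 and did not call Acacb (edgeR adjusted p = 0.0775). Acacb had the fewest reads of the 10 genes, at 103 to 323 a library, and the part of depth in its lost calls was not tested.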

Other observations

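Mitochondria hold a separate fatty acid synthesis pathway, which makes the octanoyl chain for lipoic acid. Of its 10 tested genes 1 fell and none rose (10% called, against 11.7% of all tested genes), with a median log2 fold change of -0.27. Mcat, which loads malonyl groups onto the mitochondrial carrier protein, had 13.8 and 13.3 CPM in HACY and 24.7 and 24.9 CPM in CCL4 (log2 -0.87, SE 0.18, edgeR adjusted p = 0.0245). With HACY replicate 1 or 2 left out the adjusted p was 0.149 and 0.162. Ndufab1, the carrier protein itself, had -0.39 (0.107), Mecr, the last reductase of the cycle, -0.32 (0.191) and Lipt1, a lipoyl transferase, -0.49 (0.206).

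Of 13 tested lipid droplet and fatty acid binding genes 2 rose and none fell (15.4% called, against 11.7% of all tested genes), with a median of -0.0087. Fabp1, the liver fatty acid binding protein, had 38.8 and 33.4 CPM in HACY and 10.1 and 5.22 CPM in CCL4 (log2 2.24, SE 0.31, edgeR adjusted p = 0.00634). Cd36, a fatty acid translocase also present on macrophages and endothelium, had 388 and 266 CPM in HACY and 114 and 144 CPM in CCL4 (log2 1.34, SE 0.21, adjusted p = 0.00924), a call lost with GC content and length offsets and a replicate block (1.24, 0.104) and on unfiltered FPKM (1.17, 0.0952). The Fabp1 call was lost on unfiltered FPKM (2.15, 0.0563). Plin3, a droplet coat protein, had -0.52 (0.0594) and Cideb, a droplet protein of hepatocytes, 1.03 (0.0846). Hepatocyte and macrophage markers and 6 of 7 endothelial markers moved the same way as Fabp1 and Cd36, and their part was not tested.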
